A study of Mus musculus with 8 samples.

Results

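Jak1, Tyk2, Stat2, Stat3, Irf9, Usp18, Socs1 and Socs3, the genes of the signal route that runs from interferon and cytokine receptors to the transcription factor ISGF3, were followed through the cell classes of the mouse cortex in the presence and absence of the type I interferon receptor chain IFNAR1. The 8 genes were picked by name for their place in this route, with earlier results of these data already known, and are 8 of the 31053 genes in the count tables. Nuclei of naive cortex were profiled by single-nucleus RNA-seq (snRNA-seq) in 4 wild-type (Wt) mice and 4 Ifnar1-/- mice, both on the C57BL/6J background and aged 6 weeks. Each genotype held 2 females, labelled F1 and F2, and 2 males, labelled M1 and M2, and each mouse was 1 library. The deletion in Ifnar1-/- mice is in the germline, so that every cell type lacks the receptor, and the Wt mice carry both Ifnar1 alleles. No mouse was given interferon, so each value is a resting level.

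Type I interferons bind a receptor made of IFNAR1 and IFNAR2, whose tails carry the tyrosine kinases TYK2 and JAK1. The kinases phosphorylate STAT proteins, and STAT2 joins another STAT protein and IRF9 to form ISGF3, which enters the nucleus and switches on genes that hold an interferon-stimulated response element. Irf9, Stat2 and Usp18 are themselves among the genes that ISGF3 induces in many cells. USP18 binds IFNAR2 and keeps JAK1 off it, while SOCS1 and SOCS3 block the kinases, and each of these brakes is induced by the signal it ends. STAT3 serves mainly the receptors of the IL-6 family, which also use JAK1, and Socs3 is one of its classical targets. Microglia, the macrophages that reside in the brain, are known to keep a low interferon-dependent tone at rest.

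The starts of 7 of the 8 genes were found in RefSeq (GRCm38.p6), in 8 windows of 250 bases before to 50 bases after a start. They are shown where they hold the letters that ISGF3 or STAT3 can bind, because the comparisons below ask which of these genes depend on the interferon receptor. The core of the interferon-stimulated response element was searched on both strands as GAAANN followed at once by GAAA, where N is any base, and the STAT site as TTCNNNGAA, which reads the same on both strands. Capitals mark the match in each stretch, and the stretch is written 5′ to 3′ on the strand of the gene.
Stat2 at chr10:128270251-128270310, + strand: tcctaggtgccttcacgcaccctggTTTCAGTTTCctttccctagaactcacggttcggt
Socs1 at chr16:10785579-10785644, - strand: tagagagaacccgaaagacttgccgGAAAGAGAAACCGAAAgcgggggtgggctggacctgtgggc
Socs3 at chr11:117969487-117969545, - strand: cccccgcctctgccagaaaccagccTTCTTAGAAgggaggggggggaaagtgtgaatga
The capitals of Stat2 lay 222 to 213 bases before the start and matched the response element core on the reverse strand. Those of Socs1 lay 83 to 68 bases before the start and held 2 overlapping matches to that core. Those of Socs3 matched TTCNNNGAA at 154 to 146 bases before the RefSeq start, inside the GENCODE gene and in an intron of its longer transcript. On the strand of the gene, the GENCODE start of Socs3 at 117970047 lies before this window, and the bases before that start were not searched. The response element core was found in 3.99% of the 27025 genes with such a window and TTCNNNGAA in 9.55%. The windows of Jak1, Tyk2, Stat3 and Irf9 held neither string. Both windows of Irf9, which begin at 55603735 and 55604329 on chromosome 14, lie inside its GENCODE gene, which starts at 55603571. The bases before that start were therefore not searched. A match describes letters and is not a site of binding.

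In the GENCODE annotation of GRCm38, Jak1 lies on chromosome 4 from 101152367 to 101265282, Tyk2 on chromosome 9 from 21104068 to 21131243, Stat2 on chromosome 10 from 128270559 to 128292849 and Stat3 on chromosome 11 from 100885098 to 100939540. Irf9 lies on chromosome 14 from 55603571 to 55610030, Usp18 on chromosome 6 from 121245906 to 121270917, Socs1 on chromosome 16 from 10782240 to 10785536 and Socs3 on chromosome 11 from 117966079 to 117970047. Counts took in introns as well as exons. Irf9 shares 123 bases with Rnf31 on the same strand, so a molecule from those bases cannot be told apart between them.

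The 8 libraries held 44063346 to 58423423 unique molecular identifiers (UMIs, each of which marks 1 captured RNA molecule) in 56780 barcodes, and pairs of libraries shared 3 to 30 barcodes. After filtering, 52079 nuclei fell into 43 clusters, of which marker genes named 23555 nuclei as glutamatergic neurons, 7295 as GABAergic neurons, 7088 as oligodendrocytes, 4389 as microglia, 1170 as striatal projection neurons, 450 as oligodendrocyte precursors and 158 as astrocytes, while 7974 nuclei stayed unnamed. UMIs were summed per class and mouse, and a level is given as CPM, the UMIs of a gene scaled to the total UMIs of that sum. Microglia formed 1 cluster with UMIs of all 8 listed microglial markers and a median of 1472 UMIs per nucleus. Ifnar1-/- F1 gave 156 microglial nuclei with 175051 UMIs against 439 to 767 nuclei in the other mice, and is therefore the least precise library there. Ifnar1 itself, over all nuclei, stood at 19.9, 16.8, 17.2 and 18.3 CPM in Wt F1, F2, M1 and M2 and at 14.4, 14.2, 16.7 and 15.9 CPM in the Ifnar1-/- mice. Its counts run over the whole gene, introns included, and which part was deleted is not given in the sources used here, so they do not check the genotype.

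Across the 4 largest named classes, the kinases and the transcription factors each showed a step between neighbouring classes that ran the same way in every mouse. Astrocytes, oligodendrocyte precursors, striatal projection neurons and unnamed nuclei were left out of this order. Neighbouring classes were compared within each mouse on log2(CPM + 1), with an exact two-sided sign-flip permutation test over 8 mice whose smallest possible p is 0.00781. Of 21 such pairs, 12 passed with a Benjamini-Hochberg adjusted p of 0.0137 in the exact permutation test. The share of all genes with such steps was not taken, so the steps are not shown to be particular to this route. The 8 genes were left out of the clustering, so their levels did not draw the classes.

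Jak1, the kinase shared by most cytokine receptors, averaged 214 ± 26.7 CPM (SD, n = 8 mice) in microglia, 71.0 ± 5.23 in GABAergic neurons, 61.6 ± 4.07 in glutamatergic neurons and 37.7 ± 3.27 CPM in oligodendrocytes. Each of these steps held in 8 of 8 mice. Tyk2, the kinase bound to IFNAR1, followed another order, with 78.9 ± 18.2 CPM in microglia, 36.0 ± 5.29 in oligodendrocytes, 29.1 ± 3.28 in glutamatergic neurons and 23.4 ± 2.77 CPM in GABAergic neurons, again with every step in 8 of 8 mice. Among these 4 classes, oligodendrocytes were thus the lowest for Jak1 and the next after microglia for Tyk2. Astrocytes, outside the order, stood at 89.0 ± 51.9 CPM of Jak1 on 37 UMIs and 56.2 ± 65.4 CPM of Tyk2 on 16 UMIs.

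Stat3 averaged 153 ± 20.4 CPM in microglia, 61.5 ± 8.41 in oligodendrocytes, 42.3 ± 3.26 in GABAergic neurons and 24.3 ± 2.93 CPM in glutamatergic neurons, with each step in 8 of 8 mice. Oligodendrocyte precursors, outside the order, had a mean of 98.6 ± 34.9 CPM of Stat3 (SD, n = 8) on 114 UMIs, between microglia and oligodendrocytes. Stat2, a STAT protein that acts mainly in interferon signalling, was spread more evenly. It stood at 37.4 ± 6.30 CPM in oligodendrocytes and 35.5 ± 7.58 in microglia, a step that did not pass (adjusted p = 0.414, exact permutation test). Its 28.5 ± 3.86 CPM in glutamatergic neurons lay below microglia in 8 of 8 mice and was not separated from the 26.2 ± 2.14 CPM of GABAergic neurons (adjusted p = 0.133, exact permutation test). Irf9, the DNA-binding subunit of ISGF3, averaged 33.0 ± 19.7 CPM in microglia over both genotypes, above glutamatergic neurons in 8 of 8 mice. In Wt mice alone the Irf9 mean in microglia was 50.4 ± 9.60 CPM, so the pooled SD takes in the genotype difference given below. Its 9.03 ± 2.29 CPM in glutamatergic neurons, 8.91 ± 1.76 in GABAergic neurons and 5.88 ± 2.44 CPM in oligodendrocytes formed no further step that passed the test (adjusted p = 0.977 and 0.082, exact permutation test).

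The feedback brakes were rare in every class. Usp18 had 22 UMIs in microglia and 62 in all other nuclei, too few for an order, so that microglia held 26.2% of its UMIs and 1.79% of all UMIs. Socs1 had 78 UMIs in GABAergic neurons, where it stood at 1.46 ± 0.699 CPM (SD, n = 8) against 0.700 ± 0.311 in glutamatergic neurons, higher in 8 of 8 mice and the single step of that gene that passed the test. Its mean in microglia was 2.81 ± 2.29 CPM on 17 UMIs. With a pseudocount of 0.1 CPM in place of 1 the order of its classes changed and no Socs1 step passed, while at clustering resolution 2 its step from glutamatergic neurons to oligodendrocytes passed too (adjusted p = 0.0379, exact permutation test), as it did without Wt M1 or Wt M2. Socs3 had 378 UMIs in glutamatergic neurons, 76.4% of its UMIs beside 60.4% of all UMIs, at 1.66 ± 0.714 CPM (SD, n = 8). Its mean in microglia was 2.29 ± 2.51 CPM on 19 UMIs, above that of glutamatergic neurons, and no step between its classes passed. In astrocytes, Usp18, Socs1 and Socs3 each had 0 UMIs, which allows a level of up to 7.80 CPM (3 UMIs of the class) and covers counting error only.

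**Figure D1:**
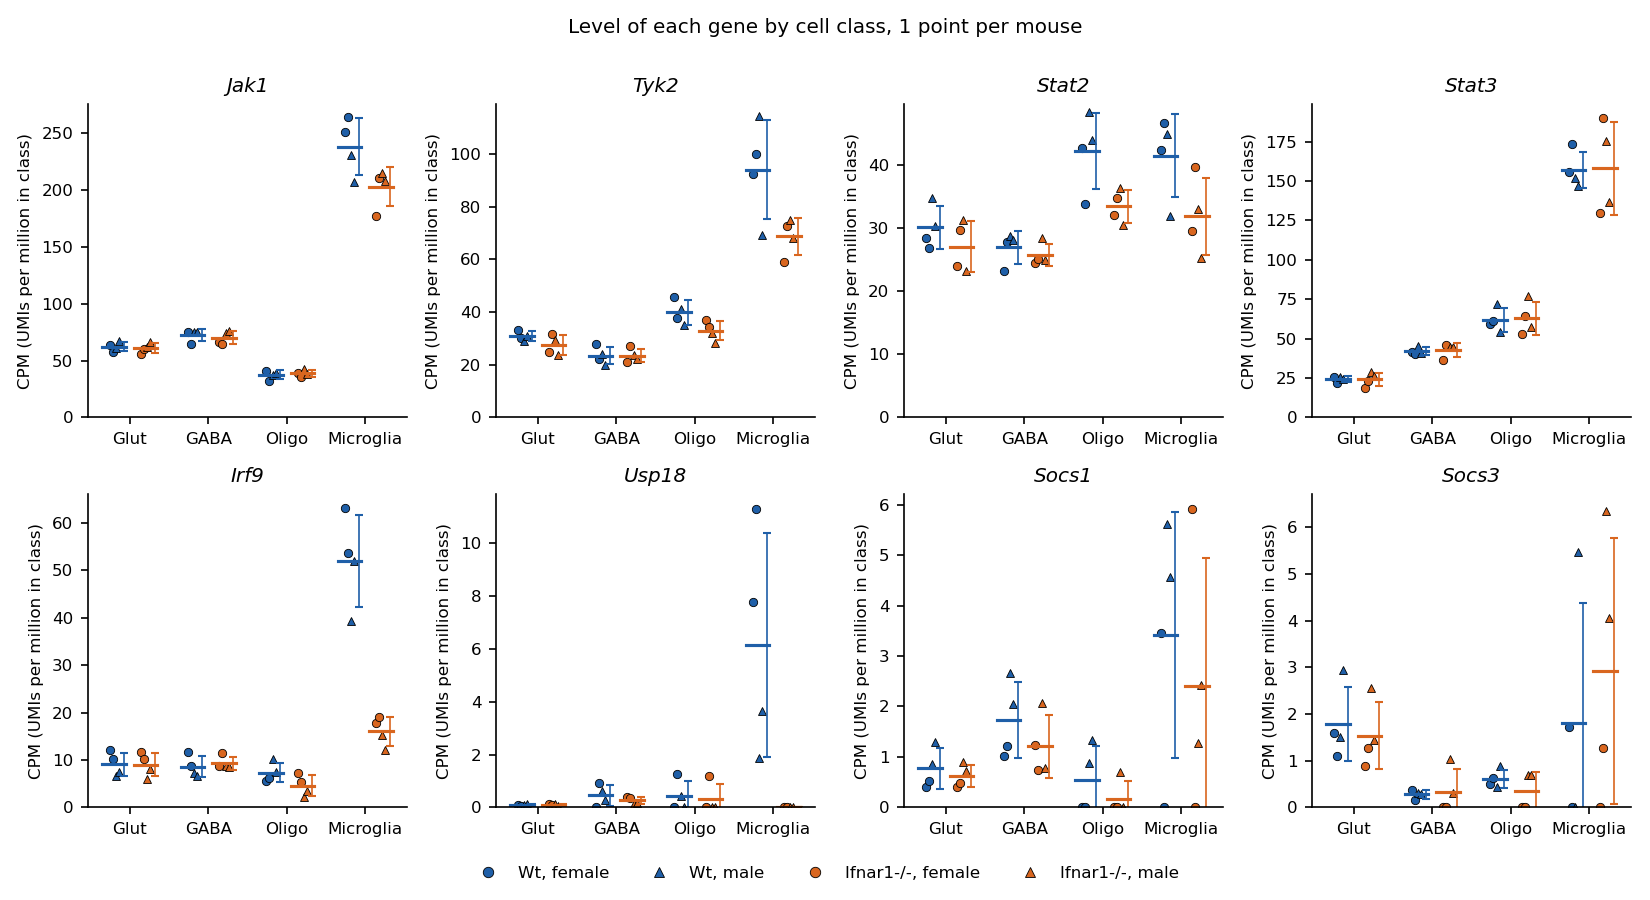
Level of each of the 8 genes by cell class, in CPM without further scaling (vertical axis, a separate linear scale for each gene), with 1 point per mouse (blue Wt, orange Ifnar1-/-, circles female, triangles male), a line at the mean and a bar of 1 SD cut at 0. Points are CPM of the UMIs of genes tested for genotype in the class, which lie above the CPM of all UMIs used for the order of classes. Among the 4 large classes, Jak1, Tyk2, Stat3 and Irf9 have their highest mean in microglia, where the Irf9 points split by genotype. The means of Stat2 over both genotypes lie between 26.2 and 37.4 CPM of all UMIs.

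Whether loss of IFNAR1 lowers the components of its own signal route was asked in each class with edgeR's quasi-likelihood test, in which a called gene has a Benjamini-Hochberg adjusted p under 0.05 over all genes tested in the class. In microglia, Irf9 was lower in Ifnar1-/- mice and was the only 1 of 5 tested members that passed, against 0.125% of the 9565 genes tested. It stood at 63.1, 53.9, 38.2 and 52.9 CPM in Wt F1, F2, M1 and M2 and 18.2, 19.5, 15.3 and 11.7 CPM in Ifnar1-/- F1, F2, M1 and M2. Values of single genes per mouse are, here and below, CPM of the UMIs of genes tested in the class. They are given after TMM scaling, by which edgeR makes the sums of a class comparable. Each Ifnar1-/- value of Irf9 lay below each Wt value, which was so for 1.04% of genes in that direction. The means were 52.0 ± 10.3 CPM (SD, n = 4) and 16.2 ± 3.47 CPM (SD, n = 4), a 3.21-fold lower level. Its log2 fold change of -1.76 (SE 0.27) had a 95% interval of -2.34 to -1.17 and, by Benjamini-Hochberg adjustment of edgeR's quasi-likelihood p-values, an adjusted p of 0.0321. The Irf9 values rested on 73, 38, 21 and 57 UMIs in Wt and 3, 15, 12 and 15 UMIs in Ifnar1-/-. The difference was of like size in each sex, from 58.5 to 18.9 CPM in females and from 45.5 to 13.5 CPM in males.

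The size of this difference held when any 1 mouse was left out, with log2 fold changes of -1.93 to -1.58, but the call did not. Without Wt F1, F2 or M2 edgeR gave an adjusted p of 0.135, 0.101 and 0.132, and without Ifnar1-/- F1, M1 or M2 it was 0.113, 0.174 and 0.199. Without Wt M1 or Ifnar1-/- F2 it was 0.0483 and 0.0435. DESeq2 gave an adjusted p of 0.00129, and edgeR with sex as a covariate gave 0.00257. Rnf31, the neighbour that overlaps Irf9, had a log2 fold change of -0.43 (SE 0.45, unadjusted p = 0.357 in edgeR's test) in the same sums. Markers of other classes were all detected in the microglial sums. The oligodendrocyte list summed to 241 to 811 CPM in Wt and 235 to 716 in Ifnar1-/-, the astrocyte list to 291 to 333 and 264 to 619, the glutamatergic list to 115 to 215 and 77.0 to 227, and the GABAergic list to 60.3 to 182 and 108.0 to 184.5. The microglial list summed to 15543 to 25505 CPM in Wt and 16015 to 25153 in Ifnar1-/-. These ranges overlapped between genotypes for each list, and their part in the Irf9 result was not tested.

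Usp18, the brake that acts on IFNAR2, was found in microglia of every Wt mouse and of no Ifnar1-/- mouse. It had 9, 8, 1 and 4 UMIs in Wt F1, F2, M1 and M2, or 7.78, 11.3, 1.82 and 3.71 CPM, and 0 UMIs in each of the 4 Ifnar1-/- mice. A count of 0 allows 3 UMIs over the whole Ifnar1-/- group, or 0.979 CPM of all UMIs, and the pooled Wt level of 6.10 CPM lay 6.23-fold above that. This lower bound on the fold takes the pooled Wt level as exact. The counting error of its 22 UMIs and the spread between mice are not in it. Leaving out 1 mouse moved this bound over 3.64 to 7.43, and the lowest came without Ifnar1-/- M2, which gave 1273719 of the 3065206 microglial UMIs of its group. The gene was too rare for the fit across genes, so no share of equally rare genes that separate in this way stands beside it. The exact two-sided permutation test of its CPM gave p = 0.0286, the smallest that 70 splits of 4 against 4 mice can give, and was 1 of 7 such tests of rare members, none of which passes after adjustment (smallest adjusted p = 0.2, exact permutation test). Without the filter on low counts, edgeR gave it an adjusted p of 0.0659. The nuclei outside microglia held 33 Usp18 UMIs from Wt mice and 29 from Ifnar1-/- mice. All nuclei together held 55 from Wt and 29 from Ifnar1-/- mice, a log2 fold change of -0.84 (SE 0.35), with an unadjusted p of 0.0403 and an adjusted p of 1.00 in edgeR's test.

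The kinases Jak1 and Tyk2 did not pass the test in microglia. Jak1 stood at 251, 265, 224 and 211 CPM in Wt F1, F2, M1 and M2 and 182, 214, 216 and 199.5 CPM in Ifnar1-/- F1, F2, M1 and M2. The Jak1 groups overlapped, with a log2 fold change of -0.22 (SE 0.14) and a 95% interval of -0.52 to 0.09. Tyk2 was measured at 92.5, 101, 111 and 70.5 CPM in Wt F1, F2, M1 and M2 and 60.8, 74.0, 75.3 and 65.5 CPM in Ifnar1-/- F1, F2, M1 and M2. Of the Wt mice, M2 lay within the Tyk2 range of the Ifnar1-/- mice and the other 3 above it, for a log2 fold change of -0.41 (SE 0.19), an unadjusted p of 0.0516 and an adjusted p of 1.00 in edgeR's test. Its 95% interval, -0.83 to 0.0034, reached 0 at its upper end.

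The STAT genes did not pass either. Stat2 was measured at 42.3, 46.8, 43.6 and 32.5 CPM in Wt F1, F2, M1 and M2 and 30.4, 40.3, 33.2 and 24.2 CPM in Ifnar1-/- F1, F2, M1 and M2. The genotypes overlapped, with a log2 fold change of -0.36 (SE 0.24) and an interval of -0.89 to 0.17, wide enough to hold both no difference and a lower level. Stat3 stood at 156, 174, 147 and 149 CPM in Wt F1, F2, M1 and M2 and 134, 193, 176 and 131 CPM in Ifnar1-/- F1, F2, M1 and M2, with Ifnar1-/- mice both at the bottom and at the top of the range. Its log2 fold change was 0.03 (SE 0.17), with an interval of -0.33 to 0.40. Over the 5 members tested in microglia the median log2 fold change was -0.36, beside -0.0021 over all genes tested, and 4 of the 5 values were below 0, beside 50.4% of all genes.

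Socs1 and Socs3 were too rare in microglia to compare well. Socs1 had 4, 0, 3 and 5 UMIs in Wt F1, F2, M1 and M2 and 1, 0, 1 and 3 in the Ifnar1-/- mice (p = 0.629, exact permutation test). Socs3 had 2, 0, 0 and 6 UMIs in Wt and 0, 1, 5 and 5 in Ifnar1-/- (p = 0.657, exact permutation test). Both genes had at least 1 mouse of each genotype at 0, and a difference between genotypes was not detectable at this depth.

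**Figure D2:**
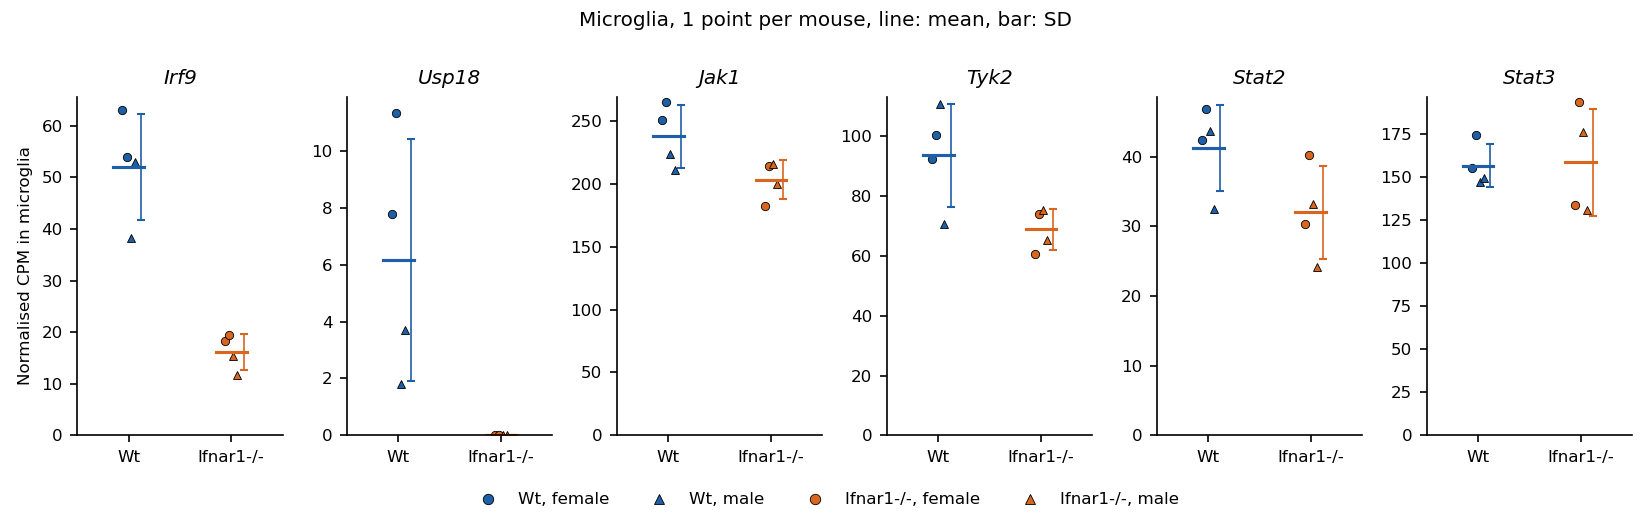
Level of Irf9, Usp18, Jak1, Tyk2, Stat2 and Stat3 in microglia of each mouse, in CPM after TMM scaling (vertical axis from 0, a separate scale for each gene), for 4 Wt mice (blue) and 4 Ifnar1-/- mice (orange), circles female and triangles male, with a line at the mean and a bar of 1 SD. The genotypes do not overlap for Irf9, 38.2 to 63.1 against 11.7 to 19.5 CPM, nor for Usp18, 1.82 to 11.3 CPM against 0, and overlap for the other genes. Of the 9565 genes tested, 1.04% did not overlap with Ifnar1-/- lower, and Usp18 was too rare to be among those tested.

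In glutamatergic neurons, 0 of 7 tested members passed edgeR's test (0 at an unadjusted p under 0.05, and 0 with DESeq2), beside 0.0606% of the 18148 genes tested. In these sums the list of striatal projection neuron markers came to 777 to 1234 CPM in Wt and 759 to 1257 in Ifnar1-/-, beside 642 to 821 and 662 to 805 for the glutamatergic list, and the part of this in the comparison was not tested. Jak1 stood at 64.6, 59.0, 59.1 and 65.1 CPM in Wt F1, F2, M1 and M2 and 57.8, 60.6, 60.4 and 66.5 CPM in Ifnar1-/- F1, F2, M1 and M2. Its 95% interval of -0.19 to 0.16 on the log2 scale was the narrowest of any member in the class. Tyk2 stood at 33.8, 30.9, 28.2 and 29.8 CPM in Wt F1, F2, M1 and M2 and 25.8, 31.9, 28.8 and 23.8 CPM in Ifnar1-/- F1, F2, M1 and M2, with overlapping groups and an interval of -0.41 to 0.10.

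Stat2 in glutamatergic neurons was at 28.8, 27.5, 33.9 and 29.3 CPM in Wt F1, F2, M1 and M2 and 24.8, 29.8, 30.4 and 23.2 CPM in Ifnar1-/- F1, F2, M1 and M2, with an interval of -0.41 to 0.13. Stat3 in the same sums was at 25.8, 22.6, 24.9 and 23.9 CPM in Wt F1, F2, M1 and M2 and 19.7, 23.6, 27.8 and 26.4 CPM in Ifnar1-/- F1, F2, M1 and M2, with an interval of -0.27 to 0.28. The genotypes overlapped in both STAT genes. Irf9, which fell in Ifnar1-/- microglia, was at 12.2, 10.5, 6.39 and 7.21 CPM in Wt F1, F2, M1 and M2 and 12.0, 10.4, 5.91 and 8.07 CPM in Ifnar1-/- F1, F2, M1 and M2 in glutamatergic neurons. The Irf9 genotypes covered nearly the same range here, for a log2 fold change of 0.00 (SE 0.27) and an interval of -0.62 to 0.62. This fit had no term for sex, so the interval takes in the sex difference of Irf9 given below.

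Of the brakes, Usp18 had 3, 2, 3 and 3 UMIs in glutamatergic neurons of Wt F1, F2, M1 and M2 and 3, 2, 5 and 2 in the Ifnar1-/- mice, or 0.0644 to 0.118 and 0.0721 to 0.140 CPM (p = 0.629, exact permutation test). Socs1 was at 0.410, 0.547, 0.841 and 1.26 CPM in Wt F1, F2, M1 and M2 and 0.421, 0.484, 0.868 and 0.721 CPM in Ifnar1-/- F1, F2, M1 and M2. The Socs1 values ran from 0.410 to 1.26 CPM within Wt alone, and its interval was -1.15 to 0.63. Socs3 was at 1.61, 1.13, 1.48 and 2.84 CPM in Wt F1, F2, M1 and M2 and 0.927, 1.28, 2.49 and 1.44 CPM in Ifnar1-/- F1, F2, M1 and M2, with groups that overlapped over most of their range and an interval of -1.02 to 0.66.

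In GABAergic neurons, 0 of 5 tested members passed edgeR's test (0 at an unadjusted p under 0.05, and 0 with DESeq2), beside 0.0269% of 14870 genes. Jak1 stood at 76.1, 66.8, 72.6 and 73.3 CPM in Wt F1, F2, M1 and M2 and 68.9, 65.2, 71.3 and 75.6 CPM in Ifnar1-/- F1, F2, M1 and M2. Tyk2 stood at 28.2, 22.8, 23.3 and 19.5 CPM in Wt F1, F2, M1 and M2 and 22.1, 27.3, 22.9 and 21.9 CPM in Ifnar1-/- F1, F2, M1 and M2. The groups overlapped for both kinases, with intervals of -0.23 to 0.16 and -0.32 to 0.33. Stat2 stood at 23.4, 28.8, 27.7 and 27.5 CPM in Wt F1, F2, M1 and M2 and 25.5, 25.5, 27.4 and 24.7 CPM in Ifnar1-/- F1, F2, M1 and M2. Stat3 stood at 42.2, 41.7, 43.8 and 39.8 CPM in Wt F1, F2, M1 and M2 and 37.9, 46.4, 43.2 and 44.1 CPM in Ifnar1-/- F1, F2, M1 and M2. Their intervals were -0.31 to 0.19 and -0.19 to 0.26, and the genotypes overlapped for both.

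Irf9 in GABAergic neurons was at 11.8, 9.07, 6.92 and 6.59 CPM in Wt F1, F2, M1 and M2 and 8.99, 11.5, 8.39 and 8.44 CPM in Ifnar1-/- F1, F2, M1 and M2. No Ifnar1-/- mouse lay outside the Wt range, and the interval was -0.40 to 0.62. Usp18 had 0, 6, 4 and 2 UMIs in Wt and 2, 2, 1 and 1 in Ifnar1-/-, 0, 0.938, 0.602 and 0.286 and 0.428, 0.372, 0.125 and 0.156 CPM (p = 0.429, exact permutation test). Socs1 had 8, 8, 17 and 14 UMIs in Wt and 6, 4, 16 and 5 in Ifnar1-/-, 1.03, 1.25, 2.56 and 2.00 and 1.28, 0.743, 2.00 and 0.781 CPM (p = 0.286, exact permutation test). For neither brake did the genotypes separate. Socs3 had 3, 1, 2 and 2 UMIs in Wt and 0, 0, 8 and 2 in Ifnar1-/- (p = 0.914, exact permutation test), with 8 of its 18 UMIs in Ifnar1-/- M1.

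In oligodendrocytes, 0 of 5 tested members passed edgeR's test (1 at an unadjusted p under 0.05, and 0 with DESeq2), beside 0.0631% of 11099 genes. The member at an unadjusted p under 0.05 was Stat2, at 43.3, 36.1, 44.3 and 43.8 CPM in Wt F1, F2, M1 and M2 and 33.3, 36.2, 35.0 and 29.6 CPM in Ifnar1-/- F1, F2, M1 and M2. Of the Wt mice, 3 lay above the Ifnar1-/- range and F2 within it, for a log2 fold change of -0.33 (SE 0.15), an unadjusted p of 0.0467 and an adjusted p of 1.00 in edgeR's test. Irf9 was at 5.60, 6.68, 9.27 and 7.53 CPM in Wt F1, F2, M1 and M2 and 7.46, 5.62, 2.02 and 3.40 CPM in Ifnar1-/- F1, F2, M1 and M2. Its Ifnar1-/- males were below and its Ifnar1-/- females within the Wt range, on 3 to 23 UMIs per mouse, and its log2 fold change of -0.67 (SE 0.38) had an interval of -1.52 to 0.18.

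Jak1 in oligodendrocytes stood at 41.8, 34.1, 34.2 and 39.0 CPM in Wt F1, F2, M1 and M2 and 40.2, 36.9, 41.0 and 37.4 CPM in Ifnar1-/- F1, F2, M1 and M2. Tyk2 stood at 46.4, 40.1, 37.9 and 35.0 CPM in Wt F1, F2, M1 and M2 and 38.4, 35.6, 30.9 and 27.5 CPM in Ifnar1-/- F1, F2, M1 and M2. Stat3 stood at 60.1, 65.4, 66.1 and 54.0 CPM in Wt F1, F2, M1 and M2 and 55.1, 66.8, 74.0 and 55.4 CPM in Ifnar1-/- F1, F2, M1 and M2. The genotypes overlapped for these 3 genes, with intervals of -0.26 to 0.37, -0.64 to 0.10 and -0.29 to 0.35. Usp18, Socs1 and Socs3 had 5, 6 and 8 UMIs over all oligodendrocytes and were not compared.

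Astrocytes were too few for a test of any member. In the 6 mice with at least 10 astrocyte nuclei, Jak1 had 6, 8 and 5 UMIs in Wt F1, M1 and M2 and 10, 4 and 3 in Ifnar1-/- F1, F2 and M2. Tyk2 had 5, 2 and 1 UMIs in those Wt mice and 4, 1 and 1 in those Ifnar1-/- mice. Stat2 had 3, 3 and 1 against 4, 0 and 2 UMIs, Stat3 had 3, 1 and 3 against 4, 1 and 5 UMIs, and Irf9 had 6 UMIs in all 8 mice. Among the 793 genes that could be tested there, edgeR called 0.0%, with 40 genes at an unadjusted p under 0.05, and DESeq2 called 1 gene. Over all nuclei together, 0 of 8 members passed edgeR's test (1, Usp18, at an unadjusted p under 0.05, and 0 with DESeq2), beside 0.0501% of 19943 genes.

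**Figure D3:**
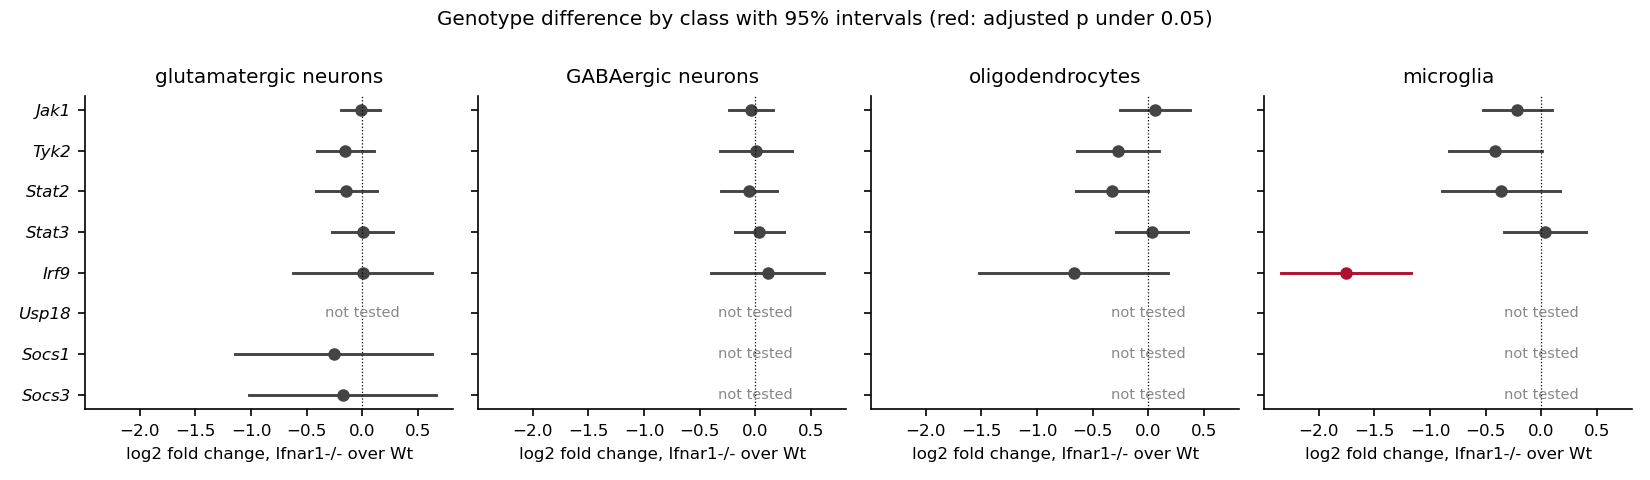
Log2 fold change of each gene, Ifnar1-/- against Wt, in glutamatergic neurons, GABAergic neurons, oligodendrocytes and microglia, with 95% intervals from edgeR's quasi-likelihood test, drawn in red where the adjusted p is under 0.05. Irf9 in microglia, at -1.76, is the one value in red, and genes too rare to test are marked as not tested.

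Because a call in 1 class and not in another does not show that they differ, the change was compared between classes within mice, as an interaction of class and genotype in edgeR over 16129 genes. The Irf9 change in microglia minus that in glutamatergic neurons was -1.75 on the log2 scale (SE 0.28, Benjamini-Hochberg adjusted p = 0.00236), beside 0.0434% of genes called. Minus that in GABAergic neurons it was -1.90 (SE 0.31, adjusted p = 0.00269 in edgeR's test), beside 0.0372% of genes called. Against oligodendrocytes the difference was -0.98 (SE 0.44, unadjusted p = 0.0314, adjusted p = 1.00 in edgeR's test), where 0.031% of genes were called. Irf9 was the one member that passed in any of these comparisons. Both calls were lost without Ifnar1-/- M2, with differences of -1.59 and -1.74 and adjusted p of 0.0947 and 0.126 in edgeR's test.

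The other genes of the route were taken from lists of names, drawn up like the members with earlier results known. Among the 10 tested of 26 ISGF3 targets, the genes that the complex is known to switch on, 3 were called lower in Ifnar1-/- microglia and 0 higher. The median log2 fold change of the 10 was -0.78 beside -0.0021 over all genes. Of the 3 called genes, Lgals3bp and Sp100 were over the 12.4 CPM that the filter on low counts asks for in 4 of 4 Wt mice and 0 of 4 Ifnar1-/- mice. They entered the test through Wt alone, so that the count and the median of the list are descriptions and no support for the Irf9 result. Irf9 was over that level in 4 Wt and 3 Ifnar1-/- mice. Lgals3bp, a secreted glycoprotein, stood at 67.4, 68.0, 50.9 and 63.1 CPM in Wt F1, F2, M1 and M2 and 12.2, 10.4, 11.5 and 7.79 in the Ifnar1-/- mice, a log2 fold change of -2.65 (SE 0.25, adjusted p = 0.00127 in edgeR's test). Ifi27, a mitochondrial interferon-induced protein, stood at 64.8, 62.4, 54.5 and 70.5 CPM against 24.3, 3.90, 12.8 and 13.2, a log2 fold change of -2.45 (SE 0.34, adjusted p = 0.022 in edgeR's test). Sp100, a nuclear body protein whose gene has near-identical copies that make its counts less certain, stood at 42.3, 39.7, 30.9 and 34.3 CPM against 12.2, 0, 0 and 3.12, on 6 UMIs in the Ifnar1-/- group. Its fitted log2 fold change was -4.09 (SE 0.61, adjusted p = 0.0321 in edgeR's test). No Ifnar1-/- mouse reached the lowest Wt mouse in these 3 genes, which was so for 1.04% of all genes tested in microglia. They were named because they were called, so this separation adds nothing to the calls.

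Of the other JAK, STAT and SOCS genes, 8 of 12 were tested in microglia, 4 above and 4 below 0, and 0 passed edgeR's test (0 at an unadjusted p under 0.05). Those nearest to the test were Socs5 at 0.42 (SE 0.25), Socs7 at -0.29 (SE 0.25) and Stat5b at 0.14 (SE 0.19) on the log2 scale. Of the other brakes, 10 of 10 were tested, 5 above and 5 below 0, and 0 passed (0 at an unadjusted p under 0.05). The phosphatases Ptprc and Ptpn11 had log2 fold changes of 0.15 (SE 0.21) and 0.17 (SE 0.24), and the STAT inhibitor Pias4 -0.22 (SE 0.36). Of the receptor chains that use these kinases, 8 of 10 were tested, 2 above and 6 below 0, and 0 passed (1, Ifnar1, at an unadjusted p under 0.05). Ifnar1 stood at -0.78 (SE 0.22, unadjusted p = 0.00356 in edgeR's test), Ifnar2 at -0.21 (SE 0.18) and Il6ra at -0.19 (SE 0.18). The 1 STAT3 target tested, Junb, stood at -0.26 (SE 0.48).

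In the other classes, 1 gene of these lists was called. Cntfr, the receptor for ciliary neurotrophic factor, which signals through JAK1 and STAT3, stood at 83.6, 70.7, 70.7 and 89.2 CPM in glutamatergic neurons of Wt F1, F2, M1 and M2 and at 24.3, 32.9, 33.8 and 40.2 CPM in the Ifnar1-/- mice. The genotypes did not overlap, which was so with Ifnar1-/- lower for 0.76% of the genes tested in that class, and the log2 fold change was -1.26 (SE 0.16, Benjamini-Hochberg adjusted p = 0.0414 in edgeR's test). Stat3 itself, which this receptor uses, was at 0.01 (SE 0.12) in the same sums. Of the ISGF3 targets, 0 of 18 were called in glutamatergic neurons (1 at an unadjusted p under 0.05), 0 of 11 in GABAergic neurons (0) and 0 of 5 in oligodendrocytes (1), all with edgeR. The medians of the tested targets there were 0.083, 0.13 and -0.34 on the log2 scale.

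**Figure D4:**
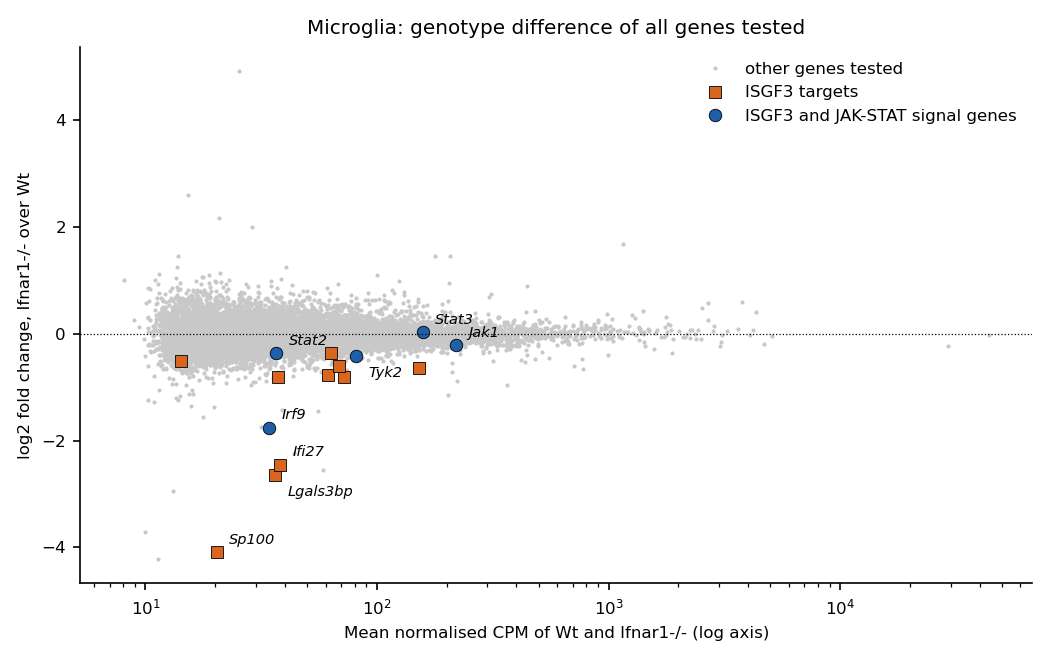
Log2 fold change, Ifnar1-/- against Wt, of the 9565 genes tested in microglia (vertical axis) against their mean level in CPM (horizontal log axis), with the 5 tested members as blue circles, the 10 tested ISGF3 targets as orange squares and other genes in grey. Irf9, Lgals3bp, Ifi27 and Sp100 lie at -1.76 to -4.09, below Jak1, Tyk2, Stat2 and Stat3, which lie at -0.41 to 0.03.

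Both genotypes held females and males, and the sexes were compared within the genotypes after the values had been seen. In glutamatergic neurons, Irf9 was lower in males, at 5.91 to 8.07 CPM in the 4 males against 10.4 to 12.2 CPM in the 4 females, with no overlap in either genotype. Its difference, male minus female, was -0.71 on the log2 scale (SE 0.13, adjusted p = 0.00428 in edgeR's test). Socs1 was higher in males, at 0.721 to 1.26 CPM against 0.410 to 0.547, a difference of 0.98 (SE 0.25, adjusted p = 0.0157 in edgeR's test). Socs3 had a difference of 0.74 (SE 0.28, adjusted p = 0.0655 in edgeR's test). These 2 of 7 members stood beside 30.0% of the 18148 genes called between the sexes in that class, so the share of members was near the background. The share of all genes without overlap between the sexes was not taken, so the separation is not shown to be particular to these genes. The males also had the higher share of mitochondrial UMIs, 0.467% to 1.14% against 0.177% to 0.432% in the females, and its part in the sex differences was not tested.

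The Socs1 call was lost without Wt M2 (adjusted p = 0.0579 in edgeR's test). In the other classes 0 of 5 members passed between the sexes with edgeR. The background was 24.2% of genes in GABAergic neurons (1 member, Irf9 at -0.46, at an unadjusted p under 0.05), 22.8% in oligodendrocytes (0 members) and 19.7% in microglia (0 members). Over all nuclei, 3 of 8 members passed beside 27.2% of genes, with Irf9 at -0.61 (SE 0.12), Socs1 at 0.92 (SE 0.25) and Socs3 at 0.87 (SE 0.27), and leaving out 1 mouse left 1 to 3 of them. Whether the genotype difference itself depended on sex was tested as an interaction. It called 0.0% of genes in glutamatergic neurons, GABAergic neurons, oligodendrocytes and microglia alike, members included, with edgeR (1 member, Irf9 in oligodendrocytes, at an unadjusted p of 0.0226). With 2 mice per sex and genotype, the standard error of the Irf9 interaction in microglia was 0.50 on the log2 scale.

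**Figure D5:**
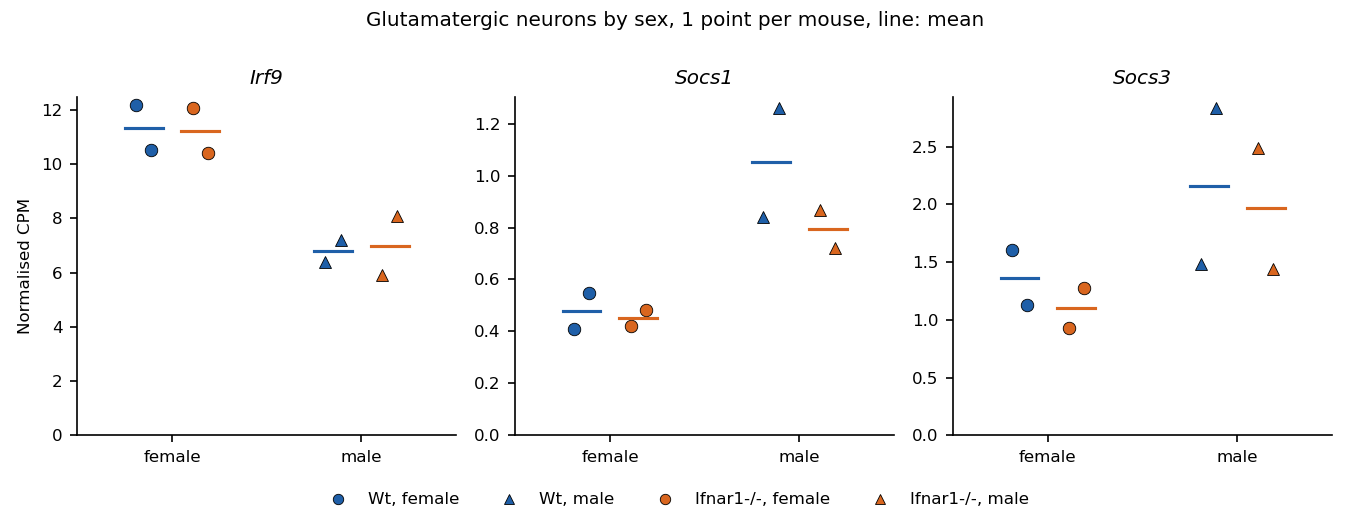
Level of Irf9, Socs1 and Socs3 in glutamatergic neurons by sex and genotype, in CPM after TMM scaling (vertical axis from 0, a separate scale for each gene), 1 point per mouse (blue Wt, orange Ifnar1-/-). The 4 males lie at 5.91 to 8.07 CPM of Irf9 and the 4 females at 10.4 to 12.2 CPM, in both genotypes. Of the 18148 genes tested in this class, 30.0% were called between the sexes.

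The genes whose level moved most like each member were ranked by Pearson's r of log2(CPM + 1) over 32 sums, 4 classes in 8 mice, among genes with at least 500 UMIs. The sums share libraries, and an r here takes in the differences between classes and between genotypes. For Irf9 the nearest were Lgals3bp (r = 0.890), Pygl (r = 0.873), a glycogen phosphorylase, and Ddx58 (r = 0.870), the RNA sensor RIG-I. Irf9 and Lgals3bp were both called lower in Ifnar1-/- microglia, so their r takes in that difference and adds no support to those calls. Jak1 was closest to Pde3b, Lrch1 and B4galt1 (r = 0.990, 0.987 and 0.987), and Stat3 to Ankrd44, Crlf3 and Tcirg1 (r = 0.985, 0.983 and 0.983). Tyk2 was closest to Arhgap17, Tbc1d22a and Irak2 (r = 0.959, 0.955 and 0.949). For Stat2, with its even levels, the nearest were Coro1b, Traf7 and Ppp1r10, at a lower r of 0.84, 0.84 and 0.83. Socs1 (Tmem185a, Golt1b and Cdk20, r = 0.821, 0.820 and 0.819) and Socs3 (6030458C11Rik, Tmem215 and Tmem39b, r = 0.754, 0.731 and 0.719) rested on 259 and 423 UMIs in these sums, and Usp18 was too rare to rank.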

How the data were processed

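Cortical nuclei of 8 mice (4 Wt, 4 Ifnar1-/-, grouped by the labelled genotype) were profiled with droplet snRNA-seq that counts UMIs at the 3' end of captured RNA. The authors aligned reads with Cell Ranger to an mm10 (GRCm38) reference in which introns were counted, and deposited raw UMI counts per gene and barcode, before their own filters, doublet removal and integration (Seurat 3.1.5 in the submitters' processing notes). Deposited counts are not normalized. Intervals cover the spread between mice, and bounds from a count of 0 cover only the counting error of the group at 0.

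Nuclei with 200 to 6000 genes, more than 1000 UMIs and under 10% mitochondrial UMIs were kept (54341), and 2262 doublets (4.16%) called by Scrublet in scanpy 1.11.5 were removed. Clustering used 3000 variable genes, 40 principal components and resolution 1, leaving out the 8 genes and the pathway lists, and clusters were named from marker lists. UMIs were summed per class and mouse and fitted with edgeR 4.0.16 (quasi-likelihood test, TMM, low counts filtered, genotype alone as the term) in R 4.3.3, with Benjamini-Hochberg adjustment over all genes of a class at 0.05. Members below the filter with at least 10 UMIs in a class were compared with an exact permutation test in scipy 1.17.1. The edgeR fit of genotype was run on simulated counts with known fold changes. It called 17.9% of the 2-fold changes in microglia and 38.8% in glutamatergic neurons. In GABAergic neurons it called 49% of them, and in oligodendrocytes 44.6%. Of the 4-fold changes it called 84.5% to 94.3% in these classes. The simulation in microglia changed 95 tested genes 2-fold and 88 4-fold, while the fit of the data there called 12 genes. Benjamini-Hochberg adjustment is less strict when more genes change, so these shares can be too high for the data. The other steps were not simulated. Alternatives were RLE size factors, DESeq2 1.42.0, no filter, sex as a covariate, the F1, F2, M1 and M2 labels as a replicate block, each mouse left out, clustering at resolution 2, doublets kept and, for the order of classes, a pseudocount of 0.1 CPM. The bound on Usp18 without each mouse was added after the values were seen. Same-labelled mice of the genotypes deviated together (correlations of 0.17 to 0.64 over classes). The labels also carry sex and do not say that a number marks a litter or day, and these cannot be told apart.

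All 8 members were named with values wherever they had at least 10 UMIs in a class. From each other list, genes called in a class were named and, in microglia, the 3 with the lowest p. For each member with at least 100 UMIs over the 32 sums, the 3 genes with the highest correlation were named. Members, lists and tests were chosen with earlier results of these data known, and the comparison of the sexes was added after the values were seen. Cell classes assigned by the authors were not used here. Promoter windows are from RefSeq and gene positions from GENCODE.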

Additional observations from a re-analysis of the deposited data

Results flagged for a closer look

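The change of Irf9 between genotypes differed between cell classes, in a test of the difference itself. It was lower in microglia than in glutamatergic neurons by a log2 difference of -1.75 and than in GABAergic neurons by a log2 difference of -1.90 (adjusted p = 0.00236 and 0.00269, edgeR's quasi-likelihood test with Benjamini-Hochberg adjustment). In microglia 4 of 4 Ifnar1-/- mice lay below the Wt range, which was so for 1.04% of genes tested there. In each of these neuron classes the genotypes overlapped. The 2 comparisons of change called 0.0434% and 0.0372% of 16129 genes. Both Irf9 calls were lost without Ifnar1-/- M2 (adjusted p = 0.0947 and 0.126 in edgeR's test).

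In 2 of 73 groups of 4 mice, 1 mouse stood apart from the other 3, where chance alone flags about 1 in 20. Stat2 in oligodendrocytes was at 36.1 CPM in Wt F2 against 43.3 to 44.3 CPM in the other Wt mice, which placed Wt F2 inside the Ifnar1-/- range. Stat3 over all nuclei was at 30.0 CPM in Wt F2 against 32.3 to 32.6 CPM in the other Wt mice.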

How the results depend on the processing

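The 1 member called in microglia, Irf9, was called under RLE size factors, DESeq2, no filter on low counts, sex as a covariate, the replicate block, clustering at resolution 2 and doublets kept, with log2 fold changes of -1.77 to -1.70. Leaving out each mouse in turn gave 0 to 1 members called in microglia, with 6 of 8 such fits losing the call, and 0 to 2 Irf9 differences called between classes. Leaving out a mouse also gave 1 to 3 members called between the sexes in glutamatergic neurons, 0 to 1 in GABAergic neurons and 1 to 3 over all nuclei, and 12 to 15 called steps between classes. A pseudocount of 0.1 CPM gave 11 called steps and clustering at resolution 2 gave 13, against 12. The replicate block (mice of the same label paired across genotypes) called 18 genes in microglia against 12 without it and 14 against 7 in oligodendrocytes, and changed the call of no member. Each mouse correlated best with its own label in at most 2 of 4 labels in every class.

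Uncalled values near 0 changed sign. Stat3 in glutamatergic neurons was at -0.0030 with sex as a covariate, -0.0038 with the replicate block and -0.0078 with doublets kept, and over all nuclei at -0.0035, -0.0091 and -0.0033 under the same settings. Irf9 in glutamatergic neurons was at -0.0022 without the filter and -0.0056 with doublets kept, and Tyk2 in GABAergic neurons at -0.0099 without the filter. Leaving out each mouse moved the log2 fold change in glutamatergic neurons over -0.055 to 0.013 for Jak1, -0.066 to 0.094 for Stat3, -0.16 to 0.18 for Irf9, -0.47 to 0.079 for Socs1 and -0.53 to 0.14 for Socs3. In GABAergic neurons it ran over -0.077 to 0.11 for Tyk2, -0.0052 to 0.088 for Stat3 and -0.0053 to 0.31 for Irf9. The Stat3 range was -0.056 to 0.089 in oligodendrocytes. In microglia it was -0.090 to 0.13 and over all nuclei -0.042 to 0.099, where Irf9 ran over -0.25 to 0.031, Socs1 over -0.55 to 0.034 and Socs3 over -0.59 to 0.14. The causes of these changes were not tested. Clustering at resolution 2 named no astrocyte cluster, so that alternative gave no astrocyte value. Depth limits Usp18, Socs1 and Socs3 most, with 0 to 9 UMIs per mouse in microglia.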

Other observations

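Members were also counted in an unnamed cluster of 89 nuclei led by Lyz2, Stab1, Mrc1, Cd74 and Pf4, genes known from macrophages at vessels and brain borders. Its 47 Wt nuclei held 3 Usp18 UMIs and its 42 Ifnar1-/- nuclei 0. Irf9 had 3 UMIs in its Wt nuclei and 1 in its Ifnar1-/- nuclei, Jak1 19 and 20, and Stat3 11 and 14. These counts are too small for a comparison of genotypes and are given as values.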
